A study of Homo sapiens with 4 samples.

Results

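The genes described here are 9 that carry peptide presentation by MHC class I molecules, together with the invariant chain of MHC class II: HLA-B, HLA-C, HLA-E, B2M, TAP1, TAP2, PSMB8, PSMB9 and CD74. They were taken from the deposited gene table by their gene names, and all 9 were found among its 29670 genes and among the 15850 that reached a level of at least 1 in some line. Total RNA of the established human liver cancer lines Hep3B, HepG2, SK-Hep-1 and Huh-7D12 was depleted of ribosomal RNA and sequenced in a study of circular RNA. There was 1 library per line and no label names a treatment, a passage or a genetic change, so each line stands for a single genetic background measured once. No replicate error can be given, and differences are described by size alone. Hep3B and the Huh-7 family are known as hepatocellular carcinoma lines, HepG2 as a hepatoblastoma line and SK-Hep-1 as a liver adenocarcinoma line.

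As background, cytosolic proteins are cut by the proteasome, and the peptides are pumped into the endoplasmic reticulum by the TAP transporter and loaded on a class I heavy chain paired with beta-2-microglobulin. Interferon-gamma raises most of these genes, and the regulator NLRC5 acts at class I promoters much as CIITA acts at class II promoters. CD74, the invariant chain, fills the groove of new class II molecules and directs them to endosomes; at the cell surface it also serves as a receptor for the cytokine MIF. Normal hepatocytes carry little class I and almost no class II protein.

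All 9 genes had their highest level in SK-Hep-1 and their next highest in HepG2, an order found for 11% of the 15850 genes, while SK-Hep-1 was highest for 33% of them. The lowest line was Huh-7D12 for 5 of the 9 genes, namely HLA-B, HLA-E, B2M, TAP2 and CD74, and Hep3B for the other 4. For B2M these places depend on the scaling: HepG2 and Hep3B differed by 1.04-fold, and with scaling by all gene reads HepG2 was the lowest line, at 261 beside 368 in Hep3B and 387 in Huh-7D12. Levels are deposited normalized reads put on a scale whose mean library total is 1000000, called the RPM scale. Values given in line order follow the order Hep3B, HepG2, Huh-7D12, SK-Hep-1. A gene was said to stand higher in a line when log2(level + 1) lay at least 2 above each of the other 3 lines, which is 4-fold, and lower when it lay as far below. By that rule 4 of the 9 genes stood higher in SK-Hep-1 (HLA-B, HLA-E, TAP2 and PSMB9), against 5.37% of all genes tested. HLA-B and CD74, 2 of the 9, stood lower in Huh-7D12, against 0.536% of all genes. The HLA-B call rests on 15 reads and was lost with a pseudocount of 4, where its log2 distance to the next line was -1.35. None of the 9 stood lower in SK-Hep-1, where 3.31% of genes did, or higher in Huh-7D12, where 1.52% did. In Hep3B and HepG2 the count was 0 in both directions, beside 0.808% higher and 0.448% lower in Hep3B and 1.46% higher and 1.15% lower in HepG2. The genes were chosen with results of these libraries known, so these counts describe them and do not test them. The count in SK-Hep-1 rests on HepG2: without that library 8 of the 9 passed, all but B2M, beside 6.91% of all genes. Without Hep3B, TAP1 and PSMB8 joined HLA-B and CD74 as lower in Huh-7D12, which made 4, beside 1.37% of all genes.

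The median over the 9 genes of a line's log2 level minus the mean over its 3 counterparts was 3.44 in SK-Hep-1, 0.60 in HepG2, -1.52 in Hep3B and -1.97 in Huh-7D12. Over all genes the same medians were -0.03, -0.08, -0.06 and -0.05. The HepG2 median turned to -0.46 when Huh-7D12 was left out, so its sign depends on that library. Leaving out a line moved the Hep3B median between -2.87 (without Huh-7D12) and -0.60 (without SK-Hep-1), and the Huh-7D12 median between -3.12 (without Hep3B) and -0.86 (without SK-Hep-1). From lowest to highest line, CD74 spanned 8.13 and HLA-B 7.04 on the log2 scale, wider than 99.5% and 98.9% of the genes tested. HLA-E, TAP1, PSMB8 and PSMB9 spanned between 4.50 and 4.98, TAP2 spanned 3.41 and HLA-C 2.69. B2M spanned 1.45, close to the median of 1.42 over all genes.

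Gene reads per library lay between 18581156 and 24409250. The authors' values were whole reads times a factor of each library between 0.890 and 1.39, and a library with 0 reads of a gene allows up to 3, a level of 0.105 to 0.164. All 8 hepatocyte markers examined stood lower in SK-Hep-1, where 3.31% of all genes did. ALB, APOA1, TTR and HNF4A had 0 reads there and SERPINA1 had 752, while the other 3 lines carried all 8. Of 12 markers of leukocytes and antigen-presenting cells, 9 were in the table and 3 reached a level of 1 in some line. Their summed level was 3.87 in Hep3B, 4.15 in HepG2, 2.67 in Huh-7D12 but 1.42 in SK-Hep-1, so it was lowest in the line where the 9 genes were highest. PTPRC, the pan-leukocyte marker, had at most 2 reads in a library and ITGAX had 0 in all. Of 7 endothelial markers 2 reached a level of 1, with summed levels between 0.419 in Hep3B and 2.24 in HepG2, and 1.85 in SK-Hep-1. Most of the SK-Hep-1 sum was TIE1, at 1.74 (33 reads) beside 0.711 in HepG2 and 0 reads in the other 2 lines, while PECAM1, CDH5, KDR and ERG had 0 reads in SK-Hep-1. In bulk RNA, fewer cells that express a gene and less RNA per cell cannot be told apart.

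The heavy chains bind the peptide. HLA-B and HLA-C are classical, highly variable chains shown to T cells and killer-cell receptors, and HLA-E is a little-varying chain that mainly carries leader peptides of other class I chains and is read by the NKG2 receptors. HLA-B lies on chromosome 6 on the minus strand, and GENCODE 29 places its gene model on GRCh38 at chr6:31269491-31357188. HLA-C is annotated at chr6:31268749-31272130 on the same strand, where it overlaps the far end of that model, and HLA-E at chr6:30489467-30494205 on the plus strand.

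HLA-B had a level of 7.85 in Hep3B (225 reads), 21.2 in HepG2 (387 reads), 0.637 in Huh-7D12 (15 reads) and 214 in SK-Hep-1 (4063 reads). SK-Hep-1 was high and Huh-7D12 low, with no pair of lines alike within counting error. The level in SK-Hep-1 was 10.1-fold that of HepG2 (95% interval 9.13 to 11.3) and 337-fold that of Huh-7D12 (204 to 602). Huh-7D12 in turn lay 12.3-fold below Hep3B (7.32 to 22.4), the next line up.

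HLA-C was at 20.3 in Hep3B (582 reads), 70.0 in HepG2 (1281 reads), 22.4 in Huh-7D12 (527 reads) and 137 in SK-Hep-1 (2591 reads). Hep3B and Huh-7D12 could not be told apart by counting error, with a ratio of 1.10 (0.977 to 1.24), and HLA-C did not share the low value of HLA-B in Huh-7D12. Its step from HepG2 to SK-Hep-1 was 1.95-fold (1.83 to 2.09), the smallest of the 9.

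HLA-E was at 13.8 in Hep3B (395 reads), 41.6 in HepG2 (761 reads), 10.7 in Huh-7D12 (253 reads) and 274 in SK-Hep-1 (5200 reads). SK-Hep-1 again stood apart, at 6.60-fold HepG2 (6.11 to 7.13) and 25.5-fold Huh-7D12 (22.5 to 29.1). The Hep3B and Huh-7D12 levels were close, with a ratio of 1.28 (1.09 to 1.51).

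The balance of HLA-B, HLA-C and HLA-E RNA differed between lines. Counted per length of merged exons over these 3 chains, HLA-C took 52.9% in Hep3B, 57.2% in HepG2, 70.03% in Huh-7D12 but 25.1% in SK-Hep-1. The HLA-B share was 16.8%, 14.2%, 1.64% and 32.4% in line order, and HLA-E took 30.3%, 28.6%, 28.3% and 42.5%. HLA-C was thus the largest of the 3 in every line except SK-Hep-1, where it was the smallest. By the longest coding transcript HLA-B and not HLA-E was the largest in SK-Hep-1, at 41.7% against 31.8%. Per length, HLA-B over HLA-C was 1.29 in SK-Hep-1 (1.23 to 1.35) and 0.318, 0.248 and 0.0234 in Hep3B, HepG2 and Huh-7D12. Per length, HLA-E over HLA-C was 1.69 in SK-Hep-1 and between 0.405 and 0.572 in the other lines. With the length of the longest coding transcript the 2 ratios in SK-Hep-1 became 1.58 and 1.20, still above 1. The 3 chains together had 11854 reads in SK-Hep-1, and their summed level there was 14.9-fold that of Hep3B (14.0 to 15.8), 4.71-fold that of HepG2 (4.51 to 4.92) and 18.5-fold that of Huh-7D12 (17.2 to 19.9). Class I genes are near-identical over long stretches, and how reads that match several of them, or a line's own alleles, were assigned is a step not given in the sources used here. Values of single heavy chains are therefore uncertain. The 8 class I pseudogenes in the table held 137, 39, 68 and 187 reads in line order.

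**Figure D1:**
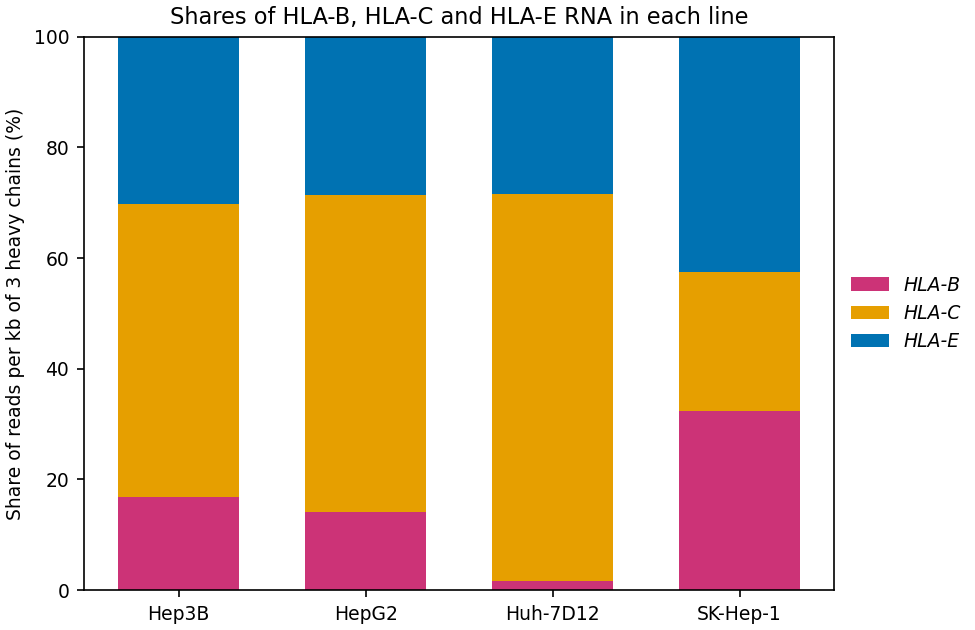
Share of HLA-B, HLA-C and HLA-E in their summed reads per kb of merged exons (vertical axis, percent), stacked for each line. HLA-C takes 70.03% in Huh-7D12 but 25.1% in SK-Hep-1, where HLA-B takes 32.4% and HLA-E 42.5%.

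The promoters of HLA-B and HLA-C are shown because the genes are close relatives that differed in Huh-7D12. Each run is the 250 bases before the RefSeq start on GRCh38.p14, written 5′ to 3′ along the gene's minus strand, with HLA-B at chr6:31357180-31357429 and HLA-C at chr6:31272093-31272342. Capitals mark matches on either strand to the NF-kB consensus, CCAAT or TGACG, the core of the X2 box bound by CREB and ATF factors.
HLA-B: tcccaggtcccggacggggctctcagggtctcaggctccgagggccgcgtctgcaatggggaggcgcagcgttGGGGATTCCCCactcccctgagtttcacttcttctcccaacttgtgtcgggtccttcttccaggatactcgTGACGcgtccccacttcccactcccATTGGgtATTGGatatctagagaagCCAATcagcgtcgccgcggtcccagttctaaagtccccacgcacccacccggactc
HLA-C: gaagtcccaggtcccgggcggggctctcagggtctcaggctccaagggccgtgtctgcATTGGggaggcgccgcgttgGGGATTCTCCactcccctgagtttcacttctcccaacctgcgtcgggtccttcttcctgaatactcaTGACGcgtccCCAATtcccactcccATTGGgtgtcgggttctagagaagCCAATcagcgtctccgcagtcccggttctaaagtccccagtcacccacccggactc
Both held the NF-kB consensus, CCAAT and TGACG, and neither held the interferon-stimulated response element core GAAANNGAAA or the GAS element TTCNNNGAA in these letters. Aligned to each other, the promoters were identical in 226 of 254 columns, or 89.0%. These are reference letters and not those of the lines. A match is no evidence of binding.

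B2M encodes the light chain that every class I heavy chain needs to reach the surface. It lies on the plus strand at chr15:44711487-44718877, outside the MHC. Its level was 314 in Hep3B (8994 reads), 327 in HepG2 (5983 reads), 305 in Huh-7D12 (7185 reads) and 834 in SK-Hep-1 (15814 reads). The first 3 lines were nearly level, and Hep3B and Huh-7D12 had a ratio of 1.03 whose interval held 1 (0.997 to 1.06). SK-Hep-1 was 2.55-fold above HepG2 (2.48 to 2.63). Scaled by the total of all gene reads, the nearest line was Huh-7D12 and the step was 1.95-fold.

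Set against the light chain, the heavy chains changed their balance between lines. For every 100 B2M reads there were 25.7 HLA-B reads in SK-Hep-1, 6.47 in HepG2, 2.502 in Hep3B and 0.209 in Huh-7D12, a comparison between lines that needs no gene length. The HLA-E count per 100 B2M reads was 32.9 in SK-Hep-1, 12.7 in HepG2, 4.39 in Hep3B and 3.52 in Huh-7D12. HLA-C did not follow: it had 16.4 in SK-Hep-1 and 21.4 in HepG2, so that SK-Hep-1 was 0.765 of HepG2, beside 6.47 in Hep3B and 7.33 in Huh-7D12. SK-Hep-1 thus held more HLA-B and HLA-E but less HLA-C per unit of B2M than HepG2.

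The B2M promoter is shown for its pair of overlapping interferon-stimulated matches. The run is the 250 bases before the start on the plus strand, chr15:44711267-44711516 on GRCh38.p14. Capitals mark GAAANNGAAA, the NF-kB consensus, CCAAT and TGACG on either strand.
B2M: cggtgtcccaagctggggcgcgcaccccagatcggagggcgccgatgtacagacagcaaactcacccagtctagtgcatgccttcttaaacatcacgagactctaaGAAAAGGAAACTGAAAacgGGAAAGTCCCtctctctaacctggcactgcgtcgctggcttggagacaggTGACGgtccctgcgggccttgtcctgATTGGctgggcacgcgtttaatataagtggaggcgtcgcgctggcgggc
GAAANNGAAA occurred in 3.02% of the 35116 RefSeq promoter windows, and B2M, TAP1 and TAP2 were the members with a match. The NF-kB consensus occurred in 5.21% of windows and in those of HLA-B, HLA-C, B2M, TAP1 and CD74.

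TAP1 and TAP2 are the paired subunits of the transporter that carries peptides into the endoplasmic reticulum. Both lie on the minus strand of chromosome 6 in the class II region, TAP1 at chr6:32845209-32853978 and TAP2 at chr6:32821833-32838780. TAP1 was at 0.907 in Hep3B (26 reads), 15.0 in HepG2 (275 reads), 2.25 in Huh-7D12 (53 reads) and 42.0 in SK-Hep-1 (797 reads). The lines lay at 4 separate levels, and the widest step was from Huh-7D12 to HepG2 at 6.68-fold (4.96 to 9.14). SK-Hep-1 was 2.80-fold HepG2 (2.44 to 3.22) and 46.3-fold Hep3B (31.4 to 71.4).

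TAP2 was at 5.06 in Hep3B (145 reads), 8.75 in HepG2 (160 reads), 3.23 in Huh-7D12 (76 reads) and 43.8 in SK-Hep-1 (831 reads). SK-Hep-1 stood apart at 5.01-fold HepG2 (4.23 to 5.97), and the other 3 lines lay within 2.71-fold of each other. With a pseudocount of 4 its log2 distance to HepG2 was 1.91, under the threshold.

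The subunits were not in step. Per length of merged exons, TAP1 over TAP2 was 0.238 in Hep3B (0.151 to 0.364), 2.29 in HepG2 (1.87 to 2.80), 0.927 in Huh-7D12 (0.640 to 1.33) and 1.28 in SK-Hep-1 (1.16 to 1.41). TAP1 was the scarcer subunit in Hep3B and the more abundant in HepG2 and SK-Hep-1. The Huh-7D12 ratio became 1.34 with the longest coding transcript, so its side of 1 depends on the length used.

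The TAP1 promoter is shown because the RefSeq start of PSMB9 lies only 487 bases away on the opposite strand. The run is the 250 bases before the first TAP1 start, chr6:32853705-32853954 on GRCh38.p14, minus strand, with capitals for GAAANNGAAA, the NF-kB consensus and CCAAT on either strand.
TAP1: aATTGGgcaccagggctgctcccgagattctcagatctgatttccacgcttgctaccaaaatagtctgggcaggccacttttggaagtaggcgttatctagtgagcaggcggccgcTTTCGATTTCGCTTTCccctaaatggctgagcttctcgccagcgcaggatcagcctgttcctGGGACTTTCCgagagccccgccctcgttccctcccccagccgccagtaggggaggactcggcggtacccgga
TTCNNNGAA, in 6.57% of all windows, matched in a second TAP1 window and a second PSMB8 window only among these genes. The 8 genes with a window had 10 windows, since TAP1 and PSMB8 each had a second. CCAAT matched 6 of the 10, against 32% of all windows. TGACG also matched 6, against 21.2%. GGGCGG, not put in capitals, matched 6 as well, against 42.6%. HLA-E was the gene without a window in the table.

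**Figure D2:**
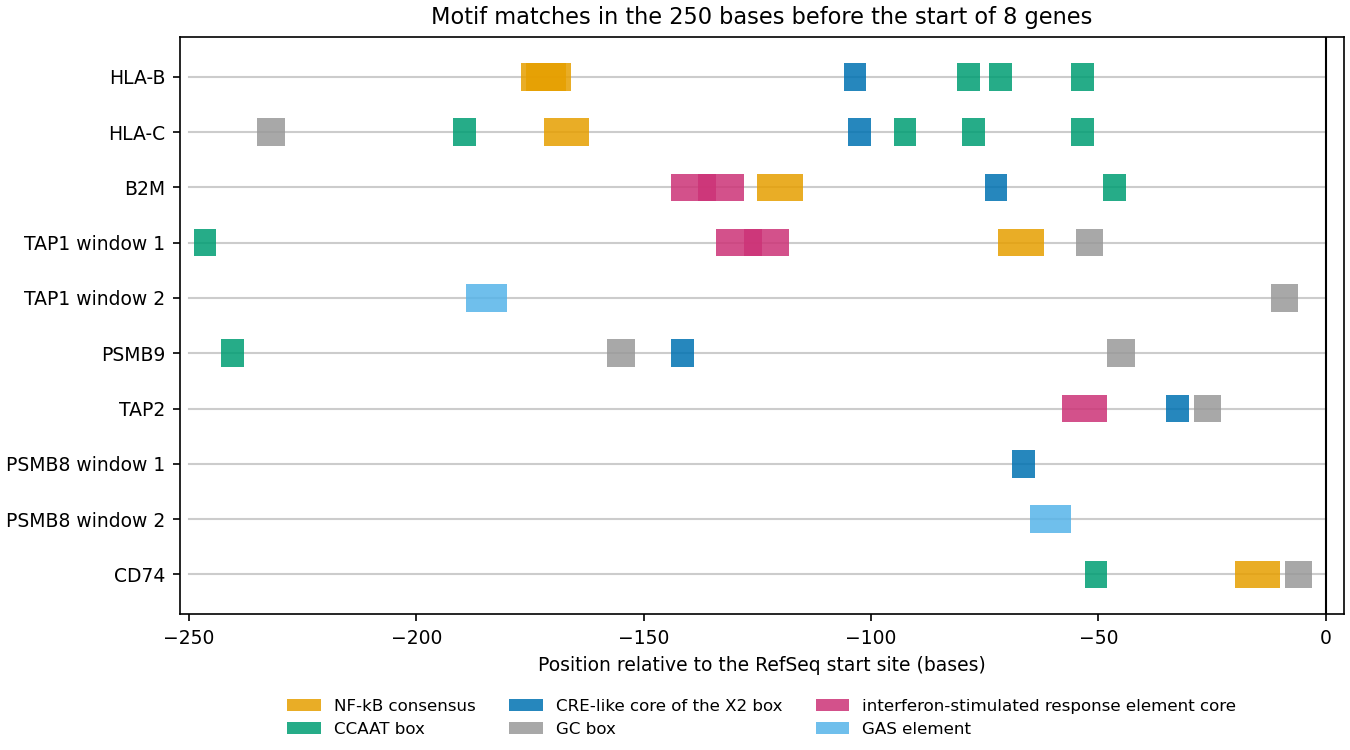
Motif matches in the 250 bases before each RefSeq start of 8 of the 9 genes, as position from the start in bases (horizontal axis). The interferon-stimulated response element core is seen in B2M, TAP1 and TAP2, and the NF-kB consensus in 5 genes.

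The rest of the peptide loading list held 8 genes, all measured, of which 1 stood higher in SK-Hep-1, where 5.37% of all genes did, and none elsewhere. That gene was ERAP2, an aminopeptidase that trims peptides in the endoplasmic reticulum, with levels of 1.64, 35.3, 0.892 and 200.01 in line order. The median log2 difference of the 8 in SK-Hep-1 was 0.996, beside -0.03 over all genes. TAPBP, tapasin, which bridges TAP and the heavy chain, had levels of 35.8, 88.9, 26.0 and 261, the same order of lines as HLA-E. The chaperones of broad use did not share it. CALR lay at 1052, 1145, 827 and 840, PDIA3 at 385, 429, 251 and 300.0, and CANX was highest in Huh-7D12 at 2144 beside 723, 987 and 1292 in Hep3B, HepG2 and SK-Hep-1.

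PSMB8 and PSMB9 are catalytic subunits of the immunoproteasome, which take the places of PSMB5 and PSMB6 in the constitutive core. PSMB8 lies at chr6:32840717-32844703 on the minus strand and PSMB9 at chr6:32844136-32859585 on the plus strand. PSMB8 was at 0.0698 in Hep3B (2 reads), 12.7 in HepG2 (232 reads), 1.02 in Huh-7D12 (24 reads) and 32.7 in SK-Hep-1 (619 reads). HepG2 and SK-Hep-1 carried most of it, 2.58-fold apart (2.21 to 3.01), and Hep3B was almost without it. Huh-7D12 exceeded Hep3B by 14.6-fold with a wide interval (3.62 to 127).

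PSMB9 was at 0.140 in Hep3B (4 reads), 3.44 in HepG2 (63 reads), 0.382 in Huh-7D12 (9 reads) and 31.7 in SK-Hep-1 (600 reads). SK-Hep-1 stood apart from HepG2 by 9.19-fold (7.08 to 12.1), a wider step than for PSMB8. Hep3B and Huh-7D12 were not distinguishable at this depth, with a ratio of 2.74 (0.764 to 12.2). The exons of PSMB8 and PSMB9 share 139 bases on opposite strands, and whether reads were counted by strand is not given in the sources used here.

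Per length, PSMB8 over PSMB5 was 0.000421 in Hep3B, 0.0353 in HepG2, 0.00327 in Huh-7D12 but 0.290 in SK-Hep-1. PSMB9 over PSMB6 was 0.000597, 0.0159, 0.000651 and 0.0898 in that order. PSMB10, which replaces PSMB7 and lies outside the MHC, had per-length ratios to PSMB7 of 0.0136, 0.0608, 0.00842 and 0.237. The constitutive subunit was the more abundant RNA in every pair and every line, also with the longest coding transcripts, which gave 0.471 for PSMB8 over PSMB5, 0.209 for PSMB9 over PSMB6 and 0.198 for PSMB10 over PSMB7 in SK-Hep-1. The order of the last 2 ratios in SK-Hep-1 therefore depends on the length used. Both parts of a ratio moved: from HepG2 to SK-Hep-1, PSMB8 was 2.58-fold higher and PSMB5 was 3.18-fold lower (2.98 to 3.39). None of the 14 constitutive core genes passed the 4-fold rule in any line. Over all genes 0.808% to 5.37% stood higher and 0.448% to 3.31% lower, depending on the line, so 0 of 14 is near those shares. The median log2 difference of the 14 was highest in Huh-7D12, at 0.73, and -0.35 in SK-Hep-1.

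**Figure D3:**
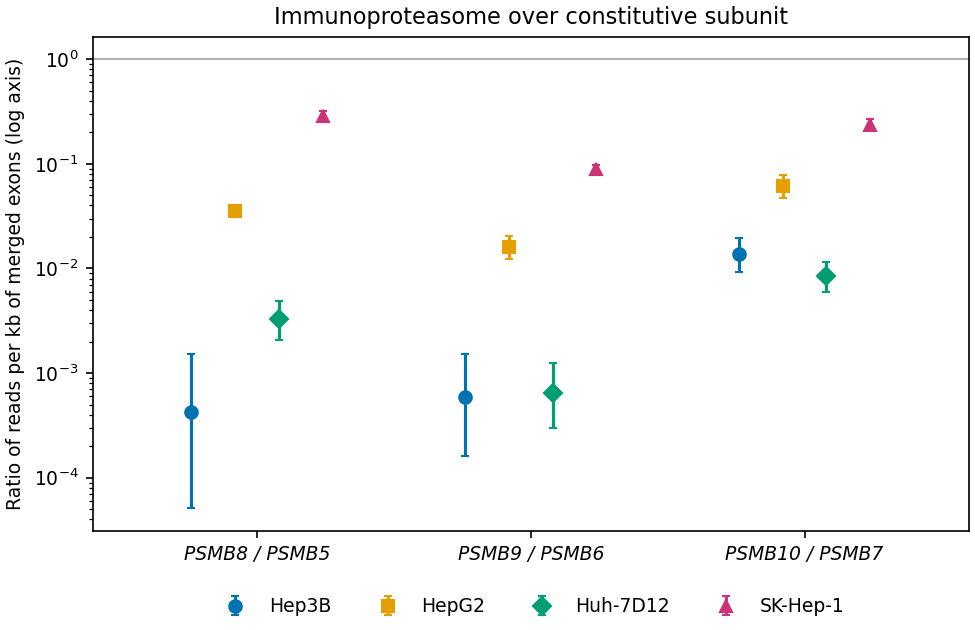
Ratio of reads per kb of merged exons of each immunoproteasome subunit to the constitutive subunit it replaces (vertical axis, logarithmic) in the 4 lines, with 95% intervals that cover counting error only. SK-Hep-1 is highest in all 3 pairs, at 0.290, 0.0898 and 0.237, and all points lie under 1.

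None of the 6 genes of immunoproteasome assembly and proteasome activation stood higher or lower in a line. Over all genes 0.808% to 5.37% stood higher and 0.448% to 3.31% lower, depending on the line, so 0 of 6 is near those shares. PSME1 and PSME2, the subunits of the interferon-inducible PA28 activator, were highest in HepG2. PSME1 had levels of 55.5, 214, 68.6 and 133 in line order, and PSME2 had 47.5, 139, 67.3 and 66.3. PSMB10 had levels of 1.05, 3.77, 1.66 and 17.1 in line order, 4.55-fold higher in SK-Hep-1 than in HepG2 by its plain ratio but under the threshold with the pseudocount. POMP, which helps assemble new proteasomes, was highest in Huh-7D12 at 199 beside 69.1, 96.6 and 115.

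CD74 lies on the minus strand at chr5:150401637-150412929, outside the MHC. Its level was 38.7 in Hep3B (1108 reads), 109.8 in HepG2 (2009 reads), 0.297 in Huh-7D12 (7 reads) and 363 in SK-Hep-1 (6878 reads). Huh-7D12 stood far below all others, 130.1-fold under Hep3B (62.9 to 324) and 1221-fold under SK-Hep-1 (592 to 3038). SK-Hep-1 was 3.30-fold HepG2 (3.14 to 3.47) and 9.38-fold Hep3B (8.81 to 10.01), and no intervals overlapped. Per length of merged exons, CD74 over B2M was 0.235 in Hep3B, 0.641 in HepG2, 0.00186 in Huh-7D12 but 0.830 in SK-Hep-1. By the longest coding transcript the ratios were 0.122, 0.332, 0.000962 and 0.429 in line order. CD74 thus had 1108 or more reads in 3 lines and 7 in the other.

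The CD74 promoter is shown because its motif set differs from those of B2M and TAP1. The run is the 250 bases before the start on the minus strand, chr5:150412911-150413160 on GRCh38.p14, with capitals for the NF-kB consensus and CCAAT on either strand.
CD74: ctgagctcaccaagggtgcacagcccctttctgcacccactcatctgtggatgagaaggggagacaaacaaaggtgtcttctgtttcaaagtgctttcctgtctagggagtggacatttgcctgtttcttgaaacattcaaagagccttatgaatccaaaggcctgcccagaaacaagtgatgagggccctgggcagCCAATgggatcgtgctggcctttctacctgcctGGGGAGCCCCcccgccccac
It held neither TGACG nor the interferon-stimulated core, in contrast to B2M, and its NF-kB match lay close to the start.

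The class II chains that CD74 escorts were found in SK-Hep-1 alone among the 4 lines at more than a trace. Of 13 class II genes listed, 11 were in the table and 10 reached a level of 1, and 7 of these stood higher in SK-Hep-1, where 5.37% of all genes did: HLA-DRA, HLA-DRB1, HLA-DRB5, HLA-DQA1, HLA-DPA1, HLA-DPB1 and HLA-DMA. HLA-DRA had 0, 1, 1 and 3358 reads in line order. HLA-DRB1 had 0 reads in the first 3 lines and 1311 in SK-Hep-1, at least 422-fold higher than in HepG2. HLA-DPA1 had 1, 0, 0 and 1767 reads. The median log2 difference of the 10 genes in SK-Hep-1 was 3.36, on a scale where the pseudocount compresses the values at 0. Summed over 7 classical chains there were 9, 2, 7 and 7054 reads.

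CD74 and the class II chains thus parted in Hep3B and HepG2. In HepG2 there were 2009 reads of CD74 and 2 of the classical chains, and in Hep3B 1108 and 9. In SK-Hep-1 both were present, and CD74 over HLA-DRA was 0.823 per length of merged exons (0.790 to 0.858) and 1.52 by the longest coding transcript. CIITA, the master regulator of class II genes, stood higher in SK-Hep-1 with 278 reads, beside 1 in HepG2 and 0 in Hep3B and Huh-7D12. HLA-DMA, which helps exchange the CD74 fragment for peptide, was at 17.7 in SK-Hep-1 and at 1.01 or lower in the other lines. Leukocyte markers were at the low levels given above in all 4 lines, and whether other cells contributed RNA was not tested.

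**Figure D4:**
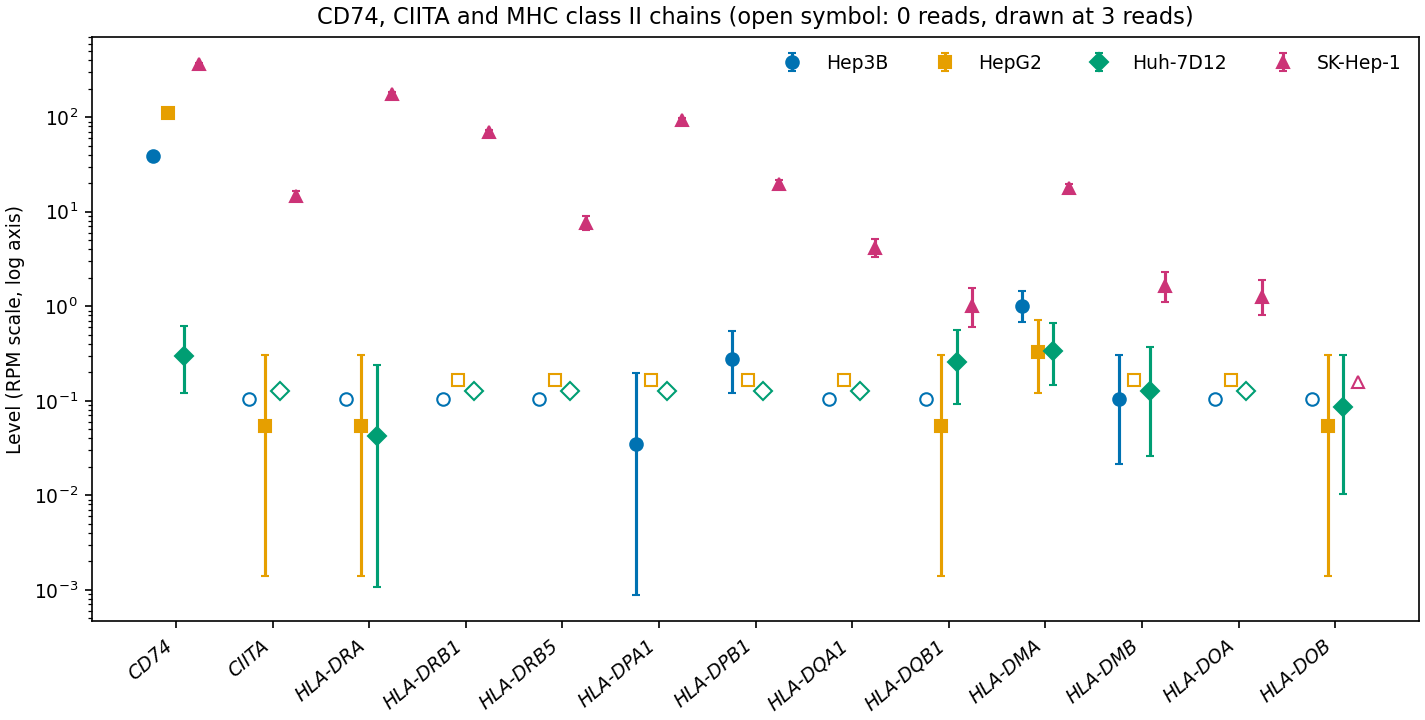
RNA level (vertical axis, RPM scale, logarithmic) of CD74, CIITA and the MHC class II chains in the 4 lines, with exact 95% Poisson intervals that cover counting error only; an open symbol marks 0 reads and is drawn at the level of 3 reads. CD74 is at 38.7 in Hep3B and 109.8 in HepG2, where HLA-DRA has at most 1 read.

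Of 8 genes that process the invariant chain or cut proteins in endosomes, 7 reached a level of 1. CTSH, a cathepsin, stood higher in HepG2, where 1.46% of all genes did. Its level was 171 there, beside 9.49 in Hep3B, 29.2 in SK-Hep-1 and 14.0 in Huh-7D12. CTSS, the cathepsin that makes the last cuts of the invariant chain in many antigen-presenting cells, was low in all lines, at 1.15, 0.383, 1.78 and 1.42 in line order. CTSB was highest in SK-Hep-1 at 857, beside 105, 281 and 61.6. SPPL2A, the protease that clears the membrane stub of CD74, lay between 52.1 and 91.3.

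MIF, the ligand of surface CD74, was found in all lines at 169.7, 181, 85.1 and 299.7 in the same order. CD44, the partner of CD74 in MIF signalling, stood higher in SK-Hep-1 with 27025 reads, beside 28 in Huh-7D12, 2 in Hep3B and 1 in HepG2. Hep3B and HepG2 therefore had CD74 and MIF with almost no CD44 RNA. Of 6 genes in that list 4 were in the table and 2 reached a level of 1.

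Among 9 regulators of MHC promoters, CIITA was the 1 that stood higher in SK-Hep-1, where 5.37% of all genes did. No other passed in any line. NLRC5 had levels of 0.0349 in Hep3B (1 read), 6.56 in HepG2 (120 reads), 0.255 in Huh-7D12 (6 reads) and 17.0 in SK-Hep-1 (323 reads). Its order of lines was that of HLA-C, TAP1, PSMB8 and PSMB9, but the step from Hep3B to Huh-7D12 was within counting error for NLRC5 (0.886 to 336), HLA-C and PSMB9. SK-Hep-1 was 2.598-fold HepG2 for NLRC5 (2.10 to 3.23). RFX5, which binds the X box of both kinds of promoter, was at 74.2, 32.5, 25.8 and 32.1 and did not share that order.

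None of the 18 interferon and NF-kB signalling genes stood higher or lower in any line. Over all genes 0.808% to 5.37% stood higher and 0.448% to 3.31% lower, depending on the line, so 0 of 18 is near those shares. The median log2 difference of the 18 in SK-Hep-1 was 0.47. IRF1, an interferon-induced activator of class I genes, was at 4.64, 6.997, 6.20 and 29.6 in line order, 4.23-fold above HepG2 (3.49 to 5.17) by its plain ratio. JAK1 was at 58.0, 83.2, 62.7 and 183.

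The class I-like heavy chains held 13 listed genes, of which 8 were in the table and 7 reached a level of 1. HLA-F and PROCR stood higher in SK-Hep-1, where 5.37% of all genes did. The median log2 difference of the 7 in that line was 1.32. HLA-F, a chain seen by killer-cell receptors, had levels of 0.454, 0.547, 0.722 and 11.1, and PROCR, the protein C receptor with a class I-like fold, had 0.0349, 0.820, 0.679 and 106. AZGP1 and FCGRT did not share the order: AZGP1 was at 60.8, 68.7, 0 and 0.158, and FCGRT, which carries IgG and albumin, at 74.2, 62.4, 17.1 and 36.9.

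Of 13 ligands of NK cells and T-cell checkpoints, 12 were in the table and 10 reached a level of 1. CD274, which encodes PD-L1, had 0, 0, 2 and 95 reads in line order. PDCD1LG2, which encodes PD-L2, had 0, 0, 0 and 259 reads. Both stood higher in SK-Hep-1, where 5.37% of all genes did. MICB, a stress ligand of NKG2D, stood lower in Hep3B, at 2.51 beside 15.7, 44.7 and 23.8, a call that was lost with a pseudocount of 4 and with scaling by all gene reads. Over all 10 lists of the pathway, 91 of 108 genes reached a level of 1. Of these, 14 stood higher in SK-Hep-1, where 5.37% of all genes did. In HepG2 1 stood higher, where 1.46% of all genes did, and in Hep3B 1 stood lower, where 0.448% did. Several of the 14 are relatives in the MHC region and do not count as independent. With a pseudocount of 4 the 14 fell to 10, beside 3.14% of all genes, and HLA-F, HLA-DRB5, HLA-DQA1 and CD274 were the calls lost. With a pseudocount of 0.25 the count was 18, beside 7.56% of all genes.

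The genes most like HLA-B, B2M and CD74 over the 4 lines were ranked by the distance between centred log2 profiles among all genes that entered. Nearest to HLA-B were SH3BGRL at 0.73, LGALS1 at 1.08 and PRRG1 at 1.24 log2 units. Nearest to CD74 were LGALS1 at 1.16 and LGALS3BP at 1.23. LGALS1, which encodes galectin-1, had levels of 22.5, 53.6, 0.679 and 392, low in Huh-7D12 and high in SK-Hep-1 as HLA-B and CD74 were. Nearest to B2M were KCNH4 at 0.04, ADAM17 at 0.06 and RADIL at 0.06. A likeness over 4 libraries is a description only, and KCNH4 and RADIL were at 0.109 or lower outside SK-Hep-1, so the pseudocount shaped their profiles.

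In the circular RNA table, which lists back-splice reads of 12473 circRNAs, HLA-B was the host of 3 and none of the other 8 genes was a host. A single circRNA had reads, at chr6:31271999-31356957 on the minus strand of GRCh38, with 1 back-splice read in Hep3B, 2 in HepG2, 0 in Huh-7D12 but 14 in SK-Hep-1. Its 84959 bases run from within HLA-C to within HLA-B, so its ends lie in genes of near-identical sequence. Exons of HLA-B and HLA-C share 35 bases in the annotation, which is 1.40% of the HLA-C exons. The back-splice reads, like the HLA-B level, were highest in SK-Hep-1. In the other lines they were too few to order, since 0 reads allow up to 3. Whether these reads come from a circle or from reads that match both genes was not tested.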

How the data were processed

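Total RNA of the 4 lines went through DNase digestion and removal of ribosomal RNA, and stranded libraries made with no poly(A) selection were sequenced as 100-bp paired ends, per the labels' protocols. STAR 2.6.1d and hg38 are named in the submitters' processing notes. No counter, annotation release or method of normalization was given in the sources used here. Both deposited tables, of genes and of circRNAs, hold a normalized signal. In the gene table the values were whole reads times 1 factor of each library, within a tolerance of 0.001. Back-splice reads are the circRNA values divided by the same factors and rounded, and whether they were whole before rounding was not checked. Levels are the gene values scaled to a mean total of 1000000. Total gene reads were 20938569 in SK-Hep-1, 22950383 in HepG2, 24409250 in Hep3B and 18581156 in Huh-7D12. Levels have exact Poisson and ratios Clopper-Pearson 95% intervals, which cover counting error only, since reads are not independent molecules. A bound against 0 reads used 3 reads per library and is written "at least". With 1 library per line no test was run. Log2 values used a pseudocount of 1. Positions and exon lengths are from GENCODE 29, matched by gene identifier, and promoters from the RefSeq table of GRCh38.p14. The 9 genes and the 13 gene lists were chosen with earlier results of these data known. Named were the 9 genes, list genes past the 4-fold rule, the most abundant of each list, and further list genes chosen for their roles with their values known. The 3 nearest profiles were ranked for HLA-B, B2M and CD74. Some genes chosen by these rules are not reported here. The scripts were checked on simulated data. Alternatives were other pseudocounts, entry levels, scalings and gene lengths, and leaving out each line. Python 3.11.15, pandas 2.3.3 and scipy 1.17.1 were used.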

Additional observations from a re-analysis of the deposited data

How the results depend on the processing

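No paired analysis was possible because each line has 1 library. Across the alternatives run, SK-Hep-1 had the highest level of all 9 genes under each of 3 other scalings: the total of all gene reads, the total outside mitochondrial genes, and median-of-ratios size factors. These moved the median log2 level of all genes by -0.30 to 0.32, by 0.44 to 0.68 and by -0.01 to 0.03. The line next to SK-Hep-1 was HepG2 for the 9 genes except B2M, for which it was Huh-7D12 with the total of all gene reads (1.95-fold) and Hep3B with the total outside mitochondrial genes (2.23-fold). With a pseudocount of 4 the genes that stood lower in Huh-7D12 fell to 1, CD74, beside 0.164% of all genes. The log2 distance of HLA-B there was -1.35, and that of TAP2 in SK-Hep-1 was 1.91. Among the pathway lists, genes lower in Hep3B, which was MICB alone as reported, numbered 0 with a pseudocount of 4 and with scaling by all gene reads, and genes lower in Huh-7D12 numbered 1 with a pseudocount of 0.25 and with the total outside mitochondrial genes. Leaving out each line in turn gave 4 to 8 of the 9 genes higher in SK-Hep-1. The 8 came without HepG2, a setting in which 6.91% of all genes passed. In Huh-7D12 2 to 4 stood lower, with 4 without Hep3B, beside 1.37% of all genes. In Hep3B 0 to 2 stood lower, TAP1 and PSMB8 without Huh-7D12, beside 1.3% of all genes. In HepG2 0 to 2 stood higher, TAP1 and PSMB8 without SK-Hep-1, beside 2.35% of all genes. For the pathway lists Hep3B had 0 to 1 higher and 1 to 4 lower (all genes 1.42% to 2.42% and 0.89% to 1.42%). HepG2 had 1 to 3 higher and 0 to 2 lower (all genes 2.2% to 2.69% and 1.95% to 2.62%). Huh-7D12 had 0 to 2 higher and 0 to 3 lower (all genes 2.07% to 3.18% and 1.04% to 1.37%). SK-Hep-1 had 14 to 20 higher and 0 to 1 lower (all genes 6.29% to 7.12% and 4.14% to 5.29%). The median log2 difference of the 9 genes in HepG2 ranged from -0.46 without Huh-7D12 to 1.82 without SK-Hep-1, so its sign is not settled. Of the ratios between genes per length, 35 moved beyond their counting interval with the longest coding transcript in place of merged exons and 12 did not. The causes of these changes were not tested. Reads under about 10 per library, as for PSMB8 and PSMB9 in Hep3B and CD74 in Huh-7D12, limit those ratios.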
